A study of Drosophila melanogaster with 4 samples.

Results

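Medium cluster-free gaps are stretches of 20 kb to under 50 kb on the chromosome arms 2L, 2R, 3L, 3R and X of Drosophila melanogaster in which neither of 2 replicate lists places an enriched cluster of H3K9me1. The centromeric-end 1 Mb of each assembled arm was left out. There were 355 such gaps among 16215 cluster-free stretches of all lengths, so 2.19% of the stretches fell in this length range. The gaps were chosen by the cluster calls of the 2 replicates, so their number, their length and their emptiness in those 2 lists are descriptions and carry no test. Positions are on FlyBase release 5, the build of the deposited lists.

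H3K9me1 is histone H3 carrying a single methyl group on lysine 9. SET-domain methyltransferases methylate this lysine in up to a trimethylated state, and in flies they include G9a, Eggless and Su(var)3-9. The dimethylated and trimethylated forms are bound by Heterochromatin Protein 1 and are known for silent chromatin near centromeres, whereas the monomethylated form has been found at active genes in mammalian cells. A gap here means that no cluster was called, since read depth is unknown for all libraries and the absence of the mark cannot be shown.

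The lists came from chromatin immunoprecipitation and sequencing (ChIP-seq) of nuclei from adult fly heads of the wild-type Oregon-R strain, of mixed adult stage, raised in population cages. The study has 2 ChIP libraries, made with an antibody lot marked as new, and 2 input libraries of sonicated chromatin, each numbered 1 and 2. The labels do not say whether replicates are separate collections of flies, and the spread between them may therefore be technical. One more list, which the authors deposited for the series as a whole, has no replicates and is given without n or SD. Over the 114.0 Mb of arm sequence analysed, clusters covered 36.6% in replicate 1, 32.6% in replicate 2 and 55.9% in the series list.

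Together the gaps made up 9.82 Mb, or 8.61% of the arm sequence analysed and 14.9% of the 65.97 Mb without a replicate cluster. Most were close to the lower limit. Their median length was 25.6 kb, with quartiles of 22.1 kb and 31.3 kb. Of the 355, 159 were shorter than 25 kb, 96 measured 25 kb to under 30 kb, 76 measured 30 kb to under 40 kb, and 24 were 40 kb or longer. The limits cut through a continuous range of lengths. Just inside the lower limit lay 2L 15088658 to 15108677 (20.02 kb) and 2L 12928852 to 12948883 (20.03 kb), and just outside it 3L 1804861 to 1824821 (19.96 kb) and X 15735594 to 15755489 (19.90 kb). Series coverage was 0.440% and 12.1% in the pair inside and 42.2% and 24.0% in the pair outside. Just inside the upper limit lay 2L 17861264 to 17911178 (49.9 kb) and 3R 19268984 to 19318452 (49.5 kb), and just outside it 3L 5476269 to 5527138 (50.9 kb) and 2L 17912678 to 17963783 (51.1 kb). The 2L pair, one on each side of the limit, are neighbours on the arm.

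Every arm held medium gaps, from 91 on 3R and 81 on 2L to 75 on X, 63 on 3L and 45 on 2R. Per Mb of analysed sequence this was 3.68 on 2L, 3.50 on X, 3.38 on 3R, 2.68 on 3L and 2.23 on 2R. Arm 2R, the most densely covered arm in both replicates, had the fewest gaps per Mb, and the gaps took up 6.21% of it, against 10.2% of 2L. Length did not separate the arms. Median gap length ran from 25.2 kb on 2L to 26.2 kb on 2R, within a range of lengths on each arm that spanned more than 20 kb.

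The order of the arms differed between gaps free in both replicates and gaps of 1 replicate alone. Taken alone, replicate 1 had 469 gaps of this length and replicate 2 had 553, a mean of 511 ± 59.4 (SD, n = 2). A single replicate gave more gaps than the 2 together because clusters of the other replicate interrupt them, and the 553 of replicate 2 alone are over 1.5 times the 355 free in both. Alone, density was 5.65 ± 0.396 per Mb on X, 5.07 ± 0.675 on 2L, 4.59 ± 0.604 on 3R, 3.93 ± 0.511 on 3L and 3.10 ± 0.386 on 2R (SD, n = 2). X and 2L differed by less than the larger of their SDs, and so did 2L and 3R. In each replicate 2R was lowest and X highest, while in the gaps free in both replicates 2L was highest.

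X had 3.50 gaps per Mb and the 4 autosomal arms together had 3.02, a ratio of 1.16. In single replicates the ratio was 1.40 in replicate 1 and 1.29 in replicate 2. When clusters scoring below the median of their own list were ignored, it was 0.644, so that the direction of the X difference depended on which clusters were counted. X is 1 chromosome, and no test of this ratio was made.

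**Figure D1:**
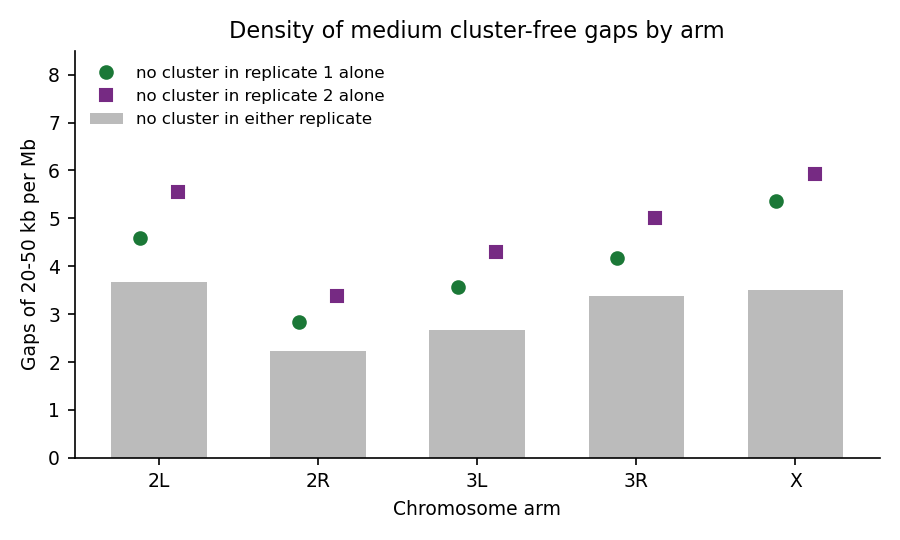
Number of gaps of 20 kb to under 50 kb per Mb of analysed arm. Bars count gaps free of clusters in both replicates and points count gaps in 1 replicate alone; 2R is lowest by each count, and the single-replicate points lie above the bars on every arm.

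Gaps of 1 replicate could be read with the replicate that had not been used to find them. In the 469 gaps of replicate 1, replicate 2 clusters covered 5.04% of bases, against 32.6% of the analysed arms. In the 553 gaps of replicate 2, replicate 1 clusters covered 7.60%, against 36.6% of the arms. The mean was 6.32 ± 1.81% (SD, n = 2) in the gaps and 34.6 ± 2.82% over the arms, a difference larger than the spread between the replicates. No test over samples was run, since with 2 replicates the smallest two-sided exact sign-flip permutation p is 0.5. A fully empty stretch in the other replicate was less usual. Of the replicate 1 gaps, 119 (25.4%) held no base of a replicate 2 cluster, and 384 (81.9%) were covered to under 10%. Of the replicate 2 gaps, 69 (12.5%) held no base of a replicate 1 cluster, and 379 (68.5%) were covered to under 10%. Empty shares were similar at other lengths. In replicate 1 they were 29.3% for gaps of 10 kb to under 20 kb and 29.5% for gaps of 50 kb or more. In replicate 2 they were 13.3% and 12%. The empty share therefore says nothing particular to medium gaps. No like share under 10% is given here for other lengths.

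This cross-replicate coverage differed little between arms and was graded with gap length. By arm it ran from 5.75 ± 1.90% on 2L to 6.83 ± 1.15% on X (n = 2). The difference was smaller than either SD, but that SD is the spread between the 2 directions of reading. Replicate 2 covered 4.40% of replicate 1 gaps on 2L and 6.02% on X. Replicate 1 covered 7.09% of replicate 2 gaps on 2L and 7.64% on X. In both directions 2L was lowest, while the highest was X in the first and 3R (8.13%) in the second. By length, the other replicate covered 6.32 ± 1.81% of gaps of 20 kb to under 50 kb, 9.46 ± 3.61% of gaps of 10 kb to under 20 kb and 2.89 ± 1.03% of gaps of 50 kb or more. In each replicate the shorter class lay above the medium class and the longer class below it. The means of the medium and the shorter class differed by less than the larger of their SDs.

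**Figure D2:**
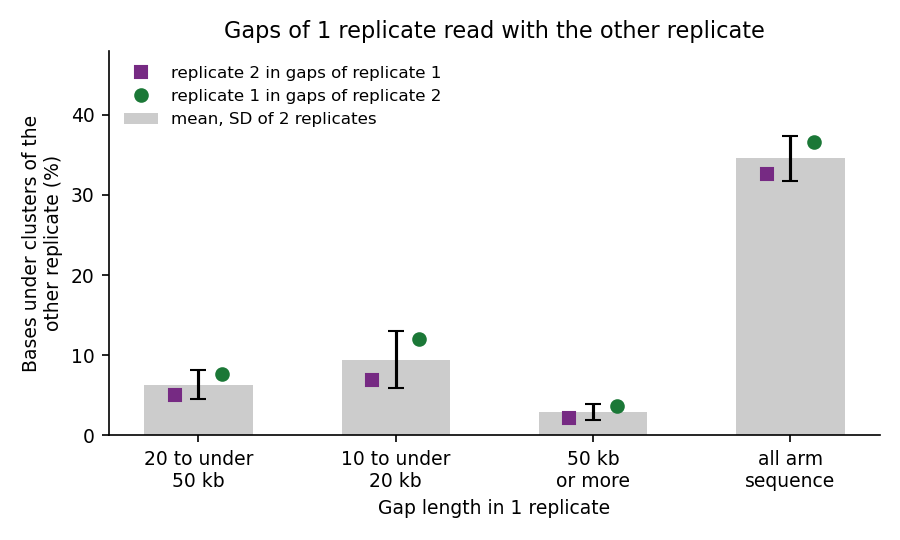
Percent of bases under clusters of the other replicate, inside gaps found in 1 replicate alone, by gap length, and over all analysed arm sequence. Bars give the mean and SD of 2 replicates and points the single replicates; all 3 length classes lie under 15%, against 32.6% and 36.6% over the arms.

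The series list, which is larger than either replicate list, did reach into the gaps. Series clusters covered 15.8% of all gap bases, against 55.9% of the analysed arms, 0.283 times the arm level. How the list was made is not given, and it is the authors' list for the same series, so the value was not treated as independent of how the gaps were chosen. At least 1 base under a series cluster was present in 354 of the 355 gaps, which is near the 96.8% of cluster-free stretches of all lengths for which that held, and so says nothing particular to these gaps. In tiles of 1 kb, 2591 of 9645 gap tiles (26.9%) held a series base, against 69.3% of all arm tiles. With gaps taken from 1 replicate alone, series coverage inside them was 22.4% for replicate 1 and 25.3% for replicate 2, and the value for replicate 2 is over 1.5 times that for gaps free in both.

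Gaps differed widely among themselves in series coverage. The median gap was covered to 15.5%, with quartiles of 8.65% and 22.6% and a maximum of 49.4%. Coverage was under 5% in 48 gaps, under 10% in 107, and 30% or more in 38. Longer gaps carried less of it. Median coverage was 17.2% in gaps under 25 kb, 15.6% from 25 kb to under 30 kb, 12.2% from 30 kb to under 40 kb and 10.5% from 40 kb. Arms differed little, from 14.8% of gap bases on 2L to 17.1% on X, against 53.8% of all analysed bases on 2L and 55.2% on X.

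Most of the series sequence inside gaps lay in separate small clusters and not in the margins of clusters that bound the gap. Of the series bases in gaps, 89.6% belonged to 986 clusters that lay wholly inside a gap, and 10.4% to clusters that crossed a gap edge. The median gap held 3 such inner clusters and the richest held 10, while 28 gaps held none. Inner clusters were narrow and of modest score. Their width had a median of 1267 bp and their series score one of 0.382. For the 5475 series clusters outside these gaps that touched neither replicate, the medians were 1286 bp and 0.369, and for those touching both replicates 3488 bp and 0.516. The inner clusters occurred at 100.4 per Mb of gap, against 97.5 of the like per Mb of cluster-free sequence in shorter or longer stretches. That second value pools unlike stretches, among them 8050 under 2 kb with little room for a whole cluster. Between the inner clusters, the longest stretch without a series cluster had a median length of 12.8 kb per gap, and it reached 20 kb in 73 gaps.

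Medium gaps lay between their shorter and longer neighbours in series coverage. Pooled coverage was 15.8% in gaps of 20 kb to under 50 kb, 20.2% in the 1144 gaps of 10 kb to under 20 kb, and 5.37% in the 38 gaps of 50 kb or more. Measured over the same outer 5 kb at each end, the values were 18.8% in medium gaps, 21.3% in the shorter class and 13.7% in the longer class. Further in than 5 kb, series clusters covered 14.2% of medium gaps and 4.35% of the longer ones. The series list has no replicates, so these differences have no error and no test.

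**Figure D3:**
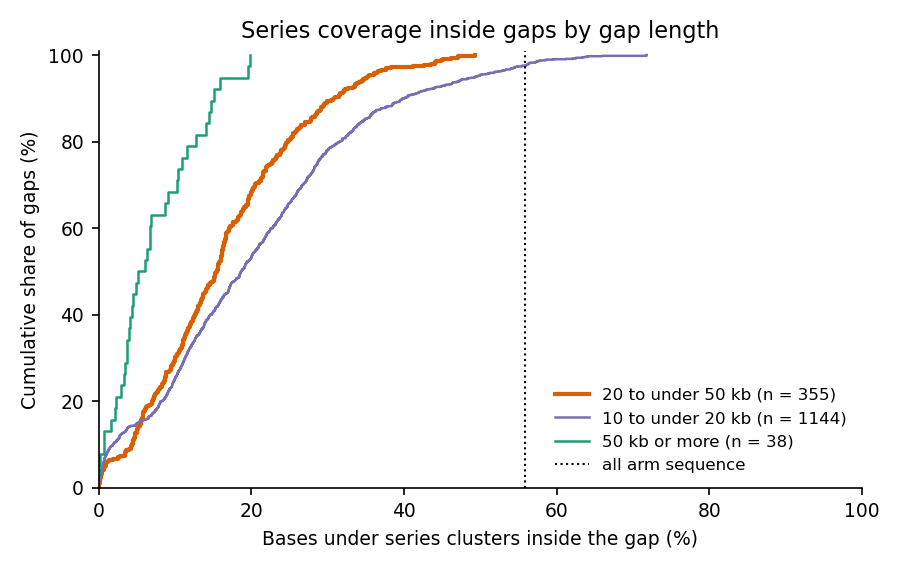
Cumulative share of gaps against the percent of each gap's bases under series clusters, for 3 classes of gap length; the dotted line marks all analysed arm sequence at 55.9%. Medians are 15.5% for gaps of 20 kb to under 50 kb, 18.7% for the shorter class and 5.65% for the longer class.

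The most covered gap was 3R 18714438 to 18739007, 24.6 kb long, with 49.4% of its bases under 8 series clusters. It was followed by 3R 11380678 to 11405990 (25.3 kb, 47.1%) and 2L 18359246 to 18382586 (23.3 kb, 46.2%). In these 3 gaps the longest run without a series cluster was 5.49 kb, 6.07 kb and 4.27 kb. The least covered was 2R 1000001 to 1033160, a 33.2 kb gap cut by the boundary of the centromeric-end 1 Mb, with no series base. Next came 3R 6884647 to 6906241 (21.6 kb, 0.0370%) and 2L 15797357 to 15825131 (27.8 kb, 0.0828%), where the few series bases came from clusters crossing the edge. The flanks of the 3 most covered gaps were more covered in both replicates than those of the 3 least covered. In the 20 kb on either side, replicates 1 and 2 covered 42.4% and 36.7% around the most covered gap, 73.1% and 58.5% around the 3R gap at 11380678 to 11405990, and 41.6% and 33.0% around the 2L gap at 18359246 to 18382586. The values were 20.1% and 7.0% for the 2R gap, which had a flank on 1 side only, and 11.6% and 15.7% around the 3R gap at 6884647 to 6906241. Around the 2L gap at 15797357 to 15825131 they were 3.89% and 3.34%. Those last flanks were other medium gaps, apart from 1 cluster of 1 replicate on each side (1336 bp and 1554 bp). Their low coverage therefore follows largely from the rule. The gap with the highest flank coverage in either replicate, 3R 17121164 to 17147486, singled out after its values were seen, had 81.4% and 87.7% in its flanks but 0.137% series coverage inside. Across the 355 gaps, which share their libraries, series coverage inside and in the flanks had a Pearson's r of 0.283 and a Spearman's rho of 0.286.

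Of the longest gap on each arm, those on 2L, 2R and X were sparsely covered in the series list and those on 3L and 3R more densely. The 2L gap at 17861264 to 17911178 (49.9 kb) was covered to 8.79%, the 2R gap at 1038576 to 1087406 (48.8 kb) to 5.17%, and the X gap at 7667201 to 7715503 (48.3 kb) to 5.49%. These 3 held runs of 34.5 kb, 35.6 kb and 35.9 kb with no series cluster. The 3R gap at 19268984 to 19318452 (49.5 kb) was covered to 29.6% by 11 series clusters, and the 3L gap at 16506792 to 16551181 (44.4 kb) to 21.3% by 8. Sequence and genes of these gaps were not analysed here.

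The flanks of the gaps were less covered than the arms as a whole. Within 20 kb on either side, clusters of replicate 1 covered 29.8% and those of replicate 2 covered 26.7%, a mean of 28.3 ± 2.22% (SD, n = 2), against 34.6 ± 2.82% over the arms. The ratio of flank to arm was 0.815 in replicate 1 and 0.819 in replicate 2, a mean of 0.817 ± 0.00258 (SD, n = 2), with each replicate set against its own arms. Around the gaps of 1 replicate alone the shortfall was smaller. Flanks of the replicate 1 gaps were covered to 33.6% by replicate 1 itself, 0.917 times its arm level, and flanks of the replicate 2 gaps to 32.0% by replicate 2, 0.981 times. Read with the other replicate, these ratios were 0.849 for the replicate 1 gaps and 0.903 for the replicate 2 gaps. Series coverage of the flanks was 50.1%, or 0.897 times the arm level. Lower flank coverage was not particular to medium gaps. Replicate coverage of flanks was 33.1 ± 3.14% for gaps of 10 kb to under 20 kb and 19.9 ± 1.75% for gaps of 50 kb or more (SD, n = 2). Series coverage of these flanks was 55.5% and 35.6%, so flank coverage fell with gap length over the 3 classes. Of the 355 gaps, 253 had flanks below the arm value in replicate 1, 240 in replicate 2 and 213 in the series list. No like share is given here for other stretches or for arm positions at large, so these counts have no baseline. Single gaps varied widely, from 3.27% to 81.4% in replicate 1 and from 0% to 87.7% in replicate 2. Other medium gaps made up 10.9% of the flank sequence and gaps of 50 kb or more made up 1.53%.

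The rule places a cluster at every gap edge, and that cluster raised the flank values. In the first kb outside the gap, replicate coverage was 67.9 ± 7.22% (SD, n = 2) and series coverage 98.2%. Replicate coverage was 30.4 ± 3.32% between 2 and 3 kb from the edge and 22.0 ± 1.25% between 4 and 5 kb, below the arm level. Farther out it was 24.4 ± 2.00% at 20 to 21 kb and 29.2 ± 3.22% at 39 to 40 kb from the edge. With the edge cluster left out and the 20 kb counted from beyond it, flank coverage was 23.1% as the mean of the replicates and 44.5% in the series list. Inside the gap, series coverage was 27.9% in the first kb, 19.0% in the second, and between 14.5% and 16.4% in every kb from there to 10 kb.

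**Figure D4:**
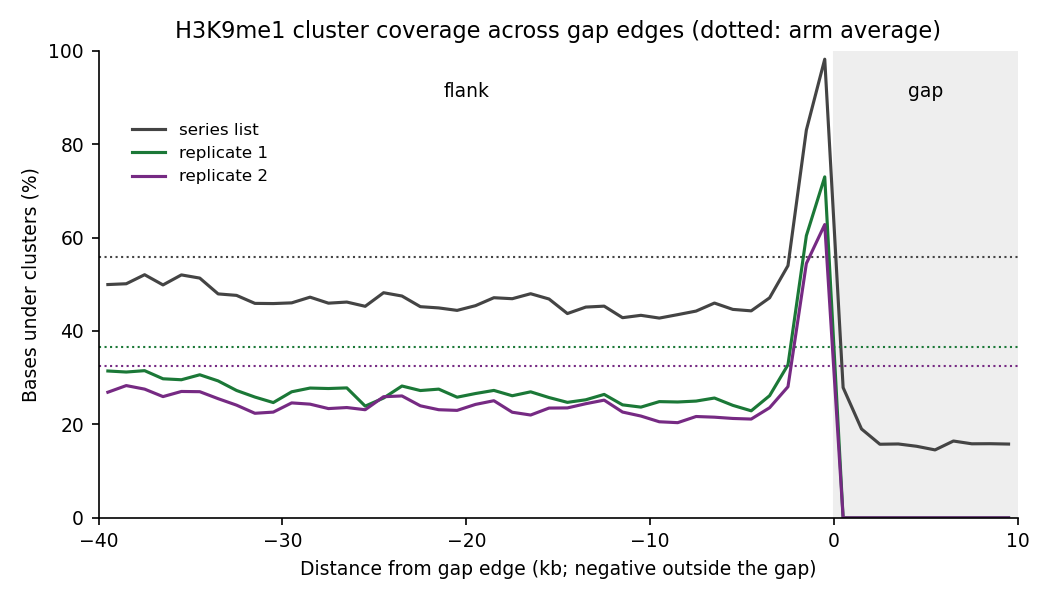
Percent of bases under clusters in 1 kb bins by distance from the gap edge, over 707 edges, with negative distances outside the gap and dotted lines at each list's arm average. The 2 replicate lines peak at the edge cluster, lie below their arm averages from 5 kb outwards, and are 0 inside by the choice of the gaps, while the series line levels off near 15% inside.

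Gap edges were mostly set by a cluster of 1 replicate. Of the 707 edges that lay at a cluster, 402 were set by replicate 1, 304 by replicate 2 and 1 by both at the same base, on 2L at the left of 14802669 to 14834885. The other replicate had its first cluster within 500 bp of the edge at 279 edges and within 5 kb at 459, with a median distance of 1614 bp. The upper quartile of that distance was 8414 bp. Edge clusters were narrower than clusters on the arms at large. In replicate 1 they had a median of 1744 bp, against 2066 bp for all clusters of the analysed arms, and in replicate 2 the widths were 1672 bp and 1998 bp. The median score of edge clusters was 0.588 in replicate 1, against 0.610 on the arms, and 0.573 in replicate 2, against 0.590.

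Many gaps were part of a longer cluster-free stretch in 1 replicate. The gap ran unchanged from edge to edge for 119 gaps in replicate 1 and for 69 in replicate 2, and was part of a longer stretch in the others. The stretch containing a gap had a median length of 29.5 kb in replicate 1 and 31.5 kb in replicate 2, and it reached 50 kb for 31 gaps in replicate 1 and 58 in replicate 2. The 2L gap at 17861264 to 17911178 lay in a cluster-free stretch of 102.6 kb in replicate 1, the longest around any medium gap in that replicate, and of 51.5 kb in replicate 2. In replicate 2 the longest stretch around a medium gap measured 392.8 kb.

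Many gaps lay near other gaps of the same class. Of the 355, 150 (42.3%) had another medium gap within 50 kb, edge to edge, 118 (33.2%) within 25 kb and 211 (59.4%) within 100 kb. The median distance to the nearest was 68.6 kb, edge to edge, with quartiles of 15.8 kb and 171.5 kb. No chance model was built for these distances. The share within 50 kb was 48.1% on 2L, 45.1% on 3R, 41.3% on 3L, 38.7% on X and 33.3% on 2R. A gap of 50 kb or more lay within 50 kb of 23 medium gaps.

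Joining gaps at most 50 kb apart gave 264 groups, of which 205 were single gaps, 37 pairs and 22 groups of 3 or more that held 76 gaps. Between neighbouring gaps of a group, the 91 separating intervals had a median length of 13.8 kb, and 33 were at most 5 kb long. Of the separators, 70 held clusters of both replicates, 15 of replicate 1 alone and 6 of replicate 2 alone. A single cluster of 1 replicate was all that divided the gaps at 17 of them, so that those gaps would be joined if that replicate were left out.

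The largest groups lay on X and 3R. On X, 5 gaps of 21.3 kb to 46.6 kb lay between 16175705 and 16404452, a span of 228.7 kb in which replicate 1 covered 14.8% and replicate 2 covered 13.6%. The longest of them, X 16324789 to 16371390, had 20.0% of its bases under series clusters. On 3R, 5 gaps of 21.0 kb to 35.0 kb lay between 23151518 and 23367890, a span of 216.4 kb covered to 8.87% and 7.86%. Their series coverage ran from 0.410% at 23268994 to 23289968 up to 36.4% at 23230430 to 23256640, so neighbouring gaps could differ widely. Next was a group of 4 on 2L, between 14802669 and 14998846, with 9.52% and 7.92% replicate coverage over 196.2 kb and series coverage of 0.284% to 9.47% in its gaps.

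The number of gaps varied along the arms, and no chance model was built for it. Of 114 windows of 1 Mb (at least 0.5 Mb at arm ends), 12 held no gap, the median window held 3, and 13 windows with at least 6 gaps held 95. The densest was 2L 17000001 to 18000000, on which 12 gaps were centred that together measured 378.8 kb. Its coverage was 20.3% in replicate 1, 18.2% in replicate 2 and 38.0% in the series list, each below the value for the whole of 2L (35.2%, 30.8% and 53.8%). Without this window 2L had 3.28 gaps per Mb, below the 3.50 of X. Within it, 17294128 to 17340173 was the emptiest gap in the series list, 46.0 kb long with 0.862% covered and 45.6 kb in a row without a series cluster, the longest such run in any medium gap.

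Each arm was cut into 10 equal parts, counted from the telomeric end. Gap density was 2.37 per Mb in part 1, 4.91 in part 8, with 56 gaps, and 1.67 in part 10. Arms 2L with 16 and 3R with 15 contributed most to part 8, and 2R with 3 contributed least. Replicate 1 covered 46.0% of part 1 and 32.7% of part 8, and replicate 2 covered 41.4% and 29.0%. Part 10 had few medium gaps, and its coverage, 34.1% and 30.6%, was near that of the arms as a whole. That average joined unlike stretches. On 3L, replicates 1 and 2 covered 59.3% and 55.3% of 22000001 to 23000000. They covered 0.839% and 0% of 23000001 to 23543557, which held no medium gap. By arm, part 10 held 5 gaps each on 2R and X, 4 each on 2L and 3R, and 1 on 3L.

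**Figure D5:**
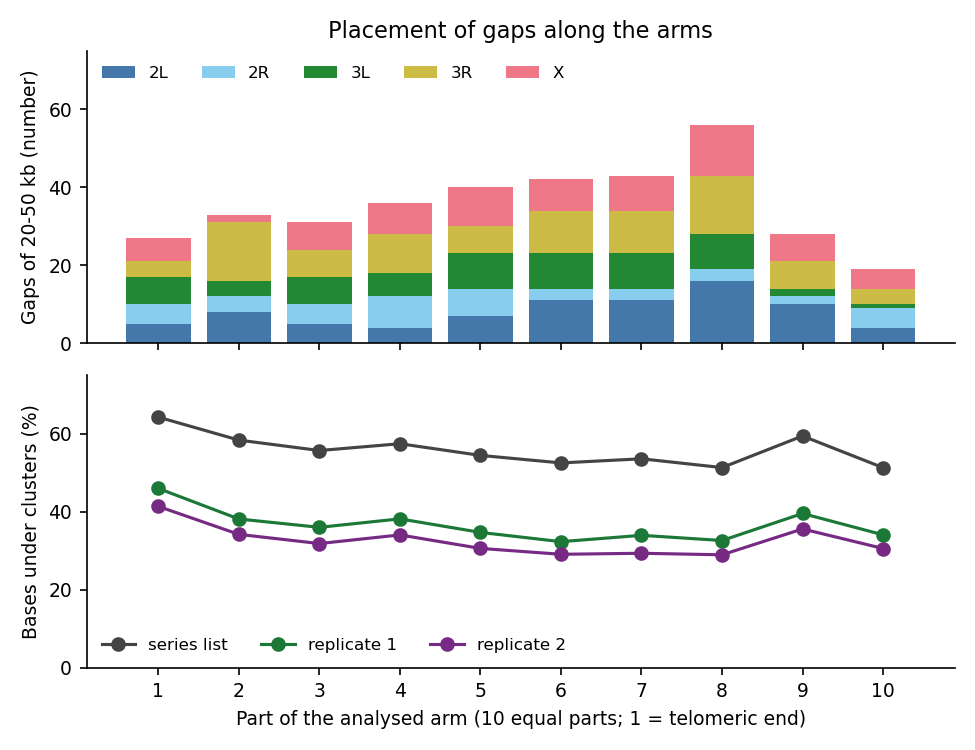
Number of gaps of 20 kb to under 50 kb by arm (top) and percent of bases under clusters of each list (bottom) in 10 equal parts of the analysed arms from the telomeric end. Gaps are most numerous in part 8 (56) and fewest in part 10 (19), and all 3 lists are highest in part 1.

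Coverage around the gaps followed the arms only in part. Replicate coverage of the flanks was 26.4 ± 2.20% on 2L, 27.2 ± 1.87% on X, 28.2 ± 2.45% on 3R, 30.1 ± 2.59% on 2R and 30.8 ± 2.03% on 3L (SD, n = 2). The corresponding values for the whole arms were 33.0 ± 3.09%, 30.6 ± 2.08%, 33.8 ± 2.99%, 39.7 ± 2.66% and 36.3 ± 3.19%. Flanks were below their arm in both replicates on each of the 5 arms. On X the flank value in replicate 1 was 28.5% against 32.1% for the arm, and in replicate 2 it was 25.8% against 29.2%. On 2R the same values were 31.9% against 41.5%, and 28.2% against 37.8%.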

How the data were processed

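The submitters' processing notes name Bowtie 0.12.7, a read aligner. Each deposited list gives enriched clusters with a score set by the authors, on FlyBase release 5 per the file headers. Clusters of a ChIP library were called against the like-numbered input, per the labels. The cluster caller, its threshold, the scale of the score and the way the series list was made are not given in the sources used here. Read depth is unknown, so no counting interval is given. The score was used only to describe and filter clusters within a list.

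Cluster-free stretches were the maximal runs of bases outside every enriched cluster of both replicates, cut at arm ends and at the centromeric-end 1 Mb; 3 of the gaps were cut. Flanks were 20 kb on either side, merged where they overlapped. Coverage is the percent of bases under clusters. The gap finder was checked on simulated data. No test was made, because the gaps were chosen from the replicate calls and 2 replicates cannot reach a small exact p. Members and measures were chosen with earlier results of these data known. Named gaps are the longest per arm, the 3 most and 3 least covered in the series list, those at the length limits, the 3 largest groups and the densest 1 Mb window. No genome or annotation of release 5 was used here, so no gene or sequence is given. Calculations used Python 3.11.15, NumPy 2.4.6 and pandas 2.3.3, and figures Matplotlib 3.10.9.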

Additional observations from a re-analysis of the deposited data

How the results depend on the processing

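Of 72 values under other settings, 31 stayed within the spread used here and 41 moved further. Counts were allowed 1.5 times, and other values 1 SD between the replicates taken alone. For replicate coverage in flanks, the SD used was that of the 2 replicates around the gaps free in both (2.22). The cause was not tested, apart from what each setting removes or adds by construction. Leaving out either replicate gave 469 to 553 gaps, 13.4 to 15.7 Mb, series coverage of 22.4% to 25.3% inside and 52.5% to 54.3% in flanks, replicate coverage of 32.0% to 33.6% in flanks (arms 32.6% to 36.6%), 52.7% to 53.5% of gaps within 50 kb of another, and an X to autosome density ratio of 1.29 to 1.40. Ignoring clusters scored below the median of their list, there were 825 gaps over 24.5 Mb, with 10.7% inside, 42.0% and 25.4% in flanks (series, replicates), 68.6% near another and a ratio of 0.644. Ignoring replicate clusters under 1500 bp gave 15.0 Mb, 23.0% inside, 53.6% and 31.3% in flanks and 57.8% near another. Limits of 15 and 40 kb gave 683 gaps, 14.8 Mb, 52.5% series coverage in flanks and 60.9% near another. Limits of 25 and 60 kb gave 213 gaps, 7.23 Mb, 13.6% inside, 46.4% and 25.4% in flanks and a ratio of 1.03. Flanks of 10 kb were covered to 54.4% and 31.4%, and flanks beyond the edge cluster to 44.5% and 23.1%. Within 25 kb and 100 kb, 33.2% and 59.4% of gaps had another. Leaving out 0.5 or 2 Mb at the centromeric end, or the 3 cut gaps, moved no value further than the spread. In every setting run, series coverage inside gaps stayed below that of their flanks. The choice of the gaps favours this direction, since the rule keeps replicate clusters out of gaps and places one at each edge. It was not treated as support. No paired analysis was possible because no value came from a test and each input entered only the calls of its ChIP library. Depth is unknown, and repeats, assembly gaps and base composition inside the gaps were not examined. These points limit what can be said of sequence without clusters.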

Other observations

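A few series clusters inside gaps had very high scores although neither replicate called a cluster there. Of the 986 inner clusters, 8 (0.811%) had a series score of at least 1, in 6 gaps, against 15 of 5475 (0.274%) among series clusters outside these gaps that touched neither replicate, and 71 of 10012 (0.709%) among those touching both. The threshold of 1 was chosen after the values were seen. The 8 were all narrow, at most 1143 bp wide. The highest lay on 3R at 8322124 to 8323124 and on 3L at 7668857 to 7669936, both with a score of 3.01, followed by 3R 8300487 to 8301496 with 2.55. A score of 3.01 is also the highest among series-only clusters outside the gaps.

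The widest inner cluster, on 2L at 4649740 to 4655386, was 5647 bp long with a score of 0.342, and neither replicate had a cluster in it.

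Series coverage was higher inside the gap than in its flanks in 5 of the 355 gaps, singled out after their values were seen. They were 2L 12865358 to 12890554 (42.7% inside, 40.8% in flanks), 2L 16005639 to 16045603 (23.3% and 20.7%), 3L 13287545 to 13313418 (36.9% and 35.0%), X 4897705 to 4919393 (23.7% and 23.2%) and X 14458702 to 14480159 (32.7% and 32.1%). In the last, the stretch without a cluster was 122.0 kb long in replicate 2 and 21.5 kb in replicate 1. Some of these flanks were largely free of replicate clusters themselves. The 2L gap at 16005639 to 16045603 lay 2.66 kb from another medium gap and beside a cluster-free stretch of 53.6 kb. The X gap at 4897705 to 4919393 lay 1.365 kb from another medium gap.

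Of the 30 regions on the analysed arms that the authors typed as depleted in the series list, 1 touched a medium gap. It lay on 3L at 17876381 to 17877919, with a score of -0.00380, and shared 2 of its 1539 bp with the gap at 17850056 to 17876382.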
